A study of Mus musculus with 64 samples.

Results

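Immediate early genes are genes whose transcription begins within minutes of synaptic activity or growth factor signals, without new protein synthesis. In neurons, calcium entry and ERK signalling act on CREB, SRF and MEF2 that already sit at their promoters. The products are transcription factors such as FOS and EGR1, feedback inhibitors of the signal such as the DUSP phosphatases, and proteins that act at the synapse such as ARC. In the hippocampus their mRNA is widely read as a mark of recently active neurons. The members described here are 38 such genes, chosen by name: Fos, Fosb, Fosl2, Jun, Junb, Jund, Egr1, Egr2, Egr3, Egr4, Arc, Npas4, Nr4a1, Nr4a2, Nr4a3, Ier2, Ier3, Ier5, Dusp1, Dusp5, Dusp6, Btg2, Atf3, Homer1, Klf2, Klf4, Klf6, Klf10, Gadd45b, Sik1, Maff, Trib1, Ptgs2, Plk2, Nptx2, Inhba, Fbxo33 and Csrnp1. All 38 were measured in every comparison, among 18283 genes in the dorsal hippocampus (dHPC) and 21088 in the ventral hippocampus (vHPC), 21114 distinct genes in all.

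RNA came from C57BL/6 mice that were wildtype (WT) or heterozygous for the BDNF Val66Met variant (hMet), of both sexes. From the age of 2 months they drank either corticosterone (CORT) at 25 mg/l in 1% ethanol or vehicle, 1% ethanol alone, for 6 weeks, a duration that the series' design text gives otherwise. The labels list 16 groups of 4 libraries, 64 in all, each library pooling 2 animals, and tissue was taken after the behavioural tests in the light phase. The values are the authors' deposited limma-voom results, 1 for each gene in each of 8 comparisons of CORT with vehicle (female or male, WT or hMet, dHPC or vHPC). There are no values per library, so no spread between libraries is shown. The direction is not named in the tables, and values above 0 were taken to mean more mRNA under CORT. Errors are moderated standard errors (SE), those behind limma's t. The study called a gene differentially expressed (DEG) at p below 0.05 with a fold change (FC) over 1.3, read here as an unadjusted p. Applied to the deposited values, this rule called more genes in each comparison than the paper counts. In hMet females in the vHPC, for example, it called 334 genes higher and 94 lower. Members past this DEG threshold are therefore not necessarily DEGs of the study. The dHPC fits had 24 residual degrees of freedom and the vHPC fits 22. The median unmoderated SE of the members was 0.232 to 0.239 in the dHPC comparisons. In the vHPC it was 0.159 in WT males and 0.144 to 0.147 in the other comparisons. In bulk tissue, fewer cells of a type cannot be told apart from less RNA per cell. No member passed an adjusted p of 0.05 in any comparison, and the lowest adjusted p was 0.0858. Of all genes, 0% passed it in 5 of the 8 comparisons, 0.0164% in hMet males in the dHPC, 0.00948% in WT males in the vHPC and 0.659% in hMet males in the vHPC.

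The promoters of 4 members whose values in the vHPC of females are described below are shown because CREB, which links calcium and cAMP to these genes, binds the CRE (TGACGTCA) and its core TGACG. Each run is the 250 bases before the RefSeq start in GRCm38.p6, 5′ to 3′ on the gene's own strand, with the CRE core TGACG (or CGTCA, the same letters on the other strand) in capitals.
Fos: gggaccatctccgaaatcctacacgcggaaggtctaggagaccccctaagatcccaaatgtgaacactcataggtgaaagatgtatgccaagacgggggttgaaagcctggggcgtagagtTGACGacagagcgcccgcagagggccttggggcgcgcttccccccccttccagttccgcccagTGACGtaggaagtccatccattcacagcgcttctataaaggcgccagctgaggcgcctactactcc
Nr4a1: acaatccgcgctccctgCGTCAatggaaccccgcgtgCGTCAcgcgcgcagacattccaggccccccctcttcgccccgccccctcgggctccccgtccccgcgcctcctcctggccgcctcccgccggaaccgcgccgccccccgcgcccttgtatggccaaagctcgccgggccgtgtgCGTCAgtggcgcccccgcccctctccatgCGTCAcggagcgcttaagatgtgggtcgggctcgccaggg
Egr4: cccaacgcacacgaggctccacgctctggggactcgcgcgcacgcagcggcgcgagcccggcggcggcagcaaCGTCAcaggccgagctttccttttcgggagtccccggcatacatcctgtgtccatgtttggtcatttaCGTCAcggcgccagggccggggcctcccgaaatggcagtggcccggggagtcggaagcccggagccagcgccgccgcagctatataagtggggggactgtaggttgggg
Npas4: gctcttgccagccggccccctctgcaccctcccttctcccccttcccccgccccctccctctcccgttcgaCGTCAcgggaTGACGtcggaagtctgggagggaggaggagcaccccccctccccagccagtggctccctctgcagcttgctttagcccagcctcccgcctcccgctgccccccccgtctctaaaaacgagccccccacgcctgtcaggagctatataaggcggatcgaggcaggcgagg
The Fos run lies at chr12:85473640-85473889 on the plus strand, that of Nr4a1 at chr15:101266596-101266845 on the plus strand, that of Egr4 at chr6:85513590-85513839 on the minus strand and that of Npas4 at chr19:4989972-4990221 on the minus strand. Fos held 2 CRE cores, whose first bases lie 129 and 66 bases before the start, and a TATAAA 33 bases before it. Nr4a1 held 4, Egr4 held 2 and Npas4 held 2. RefSeq windows of 300 bases (250 before the start to 50 after) were matched for 30 of the 38 members. Arc, Egr1, Egr3, Ier2, Klf10, Nptx2, Sik1 and Trib1 were not matched. On either strand, 20 of these 30 members (66.7%) held the CRE core in a window, against 23.0% of 27025 genes, and 13 held it at least 2 times in a window, against 5.70% of all genes. The full CRE, which contains the core, was in Btg2, Dusp1, Maff and Plk2, 4 of 30 members (13.3%) against 2.03%. The EGR motif GCGNGGGCG was in 9 members (30.0%) against 6.27%. The CArG box of SRF was in Dusp5 and Egr2 (6.67% against 1.81%), the AP-1 motif TGANTCA in Csrnp1 alone (3.33% against 8.97%), TATAAA in 5 members (16.7% against 15.7%) and the NR4A motif AAAGGTCA in 0 of 30 members against 1.70%. The members' windows were richer in G and C, with a median of 63.0% against 52.7% for all windows, and the part of base composition in these shares was not tested. A match is a run of letters and not a measured site, and sequence outside the windows was not searched.

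Levels, as the authors' mean log2 CPM over all libraries of a region, are given per kilobase of exon (GENCODE annotation, GRCm38) when genes are compared. The members spanned a wide range, from Plk2, a kinase that acts on synapses, at 5.64 log2 CPM per kb in the dHPC and 5.15 in the vHPC, to Egr2, an EGR zinc finger factor also known from myelinating glia, at -1.95 and -1.86. Their median was 2.62 in the dHPC and 2.51 in the vHPC. In the dHPC the next highest after Plk2 were Jun (5.04), Arc (4.95), Egr3 (4.72), Jund (4.70), Egr1 (4.6) and Junb (4.25). Below these came Dusp6 (3.99), Nptx2 (3.82), Ier5 (3.81), Nr4a3 (3.76), Fbxo33 (3.5), Nr4a1 (3.49), Nr4a2 (3.30), Egr4 (3.10) and Homer1 (3.08). Klf6 (2.73), Klf10 (2.70), Btg2 (2.62), Dusp5 (2.62), Ptgs2 (2.58) and Gadd45b (2.36) followed, then Dusp1 (1.75), Klf2 (1.71), Fosl2 (1.69), Ier2 (1.48), Ier3 (1.42), Fos (1.18) and Csrnp1 (1.03). Sik1 (0.80), Trib1 (0.63), Inhba (0.38), Klf4 (0.30), Npas4 (0.05), Fosb (-0.17), Atf3 (-1.12) and Maff (-1.57) were the lowest beside Egr2. Fos and Npas4 stood at low levels, and the errors of their fold changes were among the widest. The tables give no error for a mean level, so which neighbours in this order differ could not be tested.

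Between regions, 25 of the 38 members (65.8%) had a lower mean log2 CPM in the vHPC and 13 a higher one, with a median difference of -0.22, while 51.9% of the 18257 genes in both regions were lower in the vHPC, with a median of -0.01. The members furthest below in the vHPC were Nptx2, a secreted pentraxin that clusters AMPA receptors (-0.99), Atf3 (-0.94), Ier5 (-0.90), Inhba, the activin A subunit (-0.83), Egr1 (-0.78) and Arc (-0.77). Fosl2 (0.87) was the member furthest above. The regions were fitted separately by the authors, so these differences of level were not tested.

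**Figure D1:**
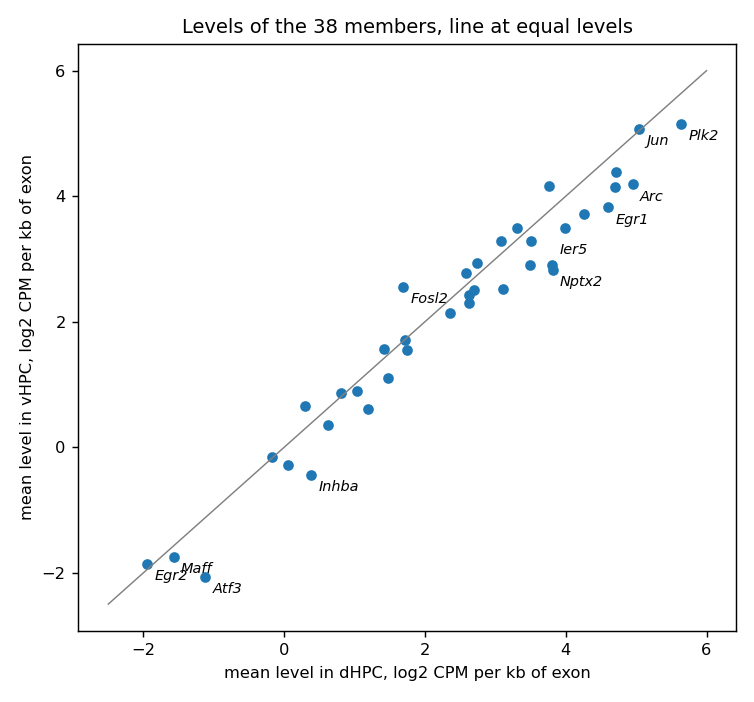
Mean level of each of the 38 members in the dHPC (horizontal axis) and the vHPC (vertical axis), in log2 CPM per kb of exon, as the authors' mean over the libraries of a region. Each point is a gene and the line marks equal levels; 25 points lie below it, Nptx2, Atf3, Ier5, Inhba, Egr1 and Arc furthest, and Fosl2 lies furthest above.

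Over the 8 comparisons, 25 members had an unadjusted p below 0.05 at least once (34 of 304 tests), 14 passed the DEG threshold at least once, and 13 never reached p below 0.05: Jun, Jund, Atf3, Maff, Egr2, Egr3, Nr4a2, Klf10, Dusp1, Dusp5, Sik1, Gadd45b and Inhba. The share of all genes that passed at least once was not counted, so these pooled counts have no background. Shares of all genes are given below for each comparison. The median log2 fold change of the members was negative in females, at -0.08 (WT) and -0.18 (hMet) in the vHPC, and -0.14 (WT) and -0.03 (hMet) in the dHPC. In males it was 0.08 in WT and -0.04 in hMet in the vHPC, and 0.19 in WT and -0.01 in hMet in the dHPC. The median over all genes lay between -0.01 and 0.00 in every table. The members below 0 numbered 28 of 38 in WT females and 36 of 38 in hMet females in the vHPC (94.7%, against 49.2% of all genes), but 11 in WT males and 21 in hMet males. In the dHPC they numbered 25 (WT) and 23 (hMet) in females, and 7 (WT, 18.4% against 51.1% of all genes) and 19 (hMet) in males.

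**Figure D2:**
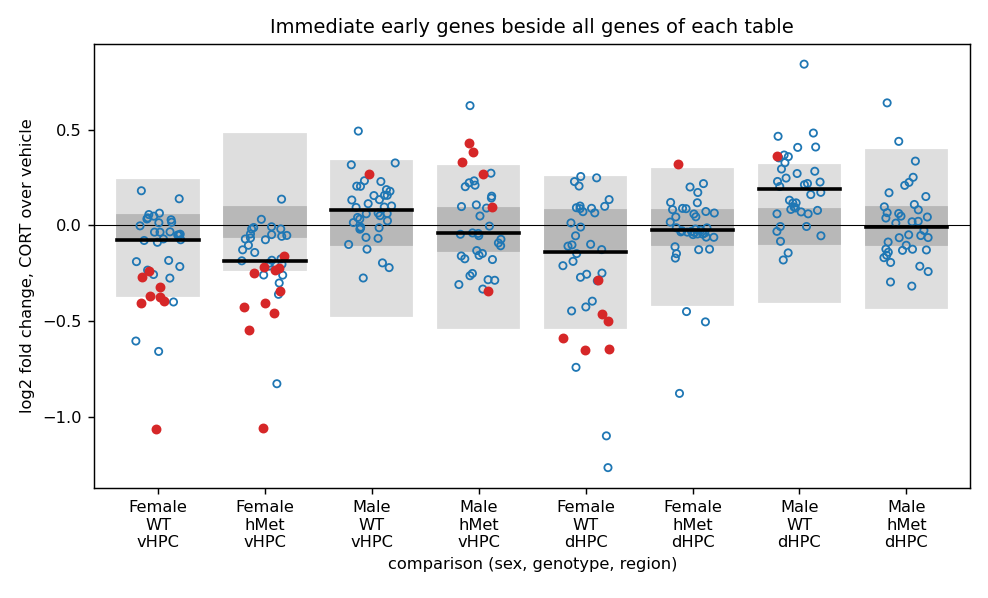
Log2 fold change with CORT (vertical axis) of each of the 38 members in the 8 comparisons (horizontal axis): filled red points have an unadjusted p below 0.05, open blue points do not, and the black bar is the median of the members. The dark and light grey bands span the 25th to 75th and the 5th to 95th percentile of all genes of the table; the medians of hMet females in the vHPC (-0.18) and WT males in the dHPC (0.19) lie furthest from 0.

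**Figure D3:**
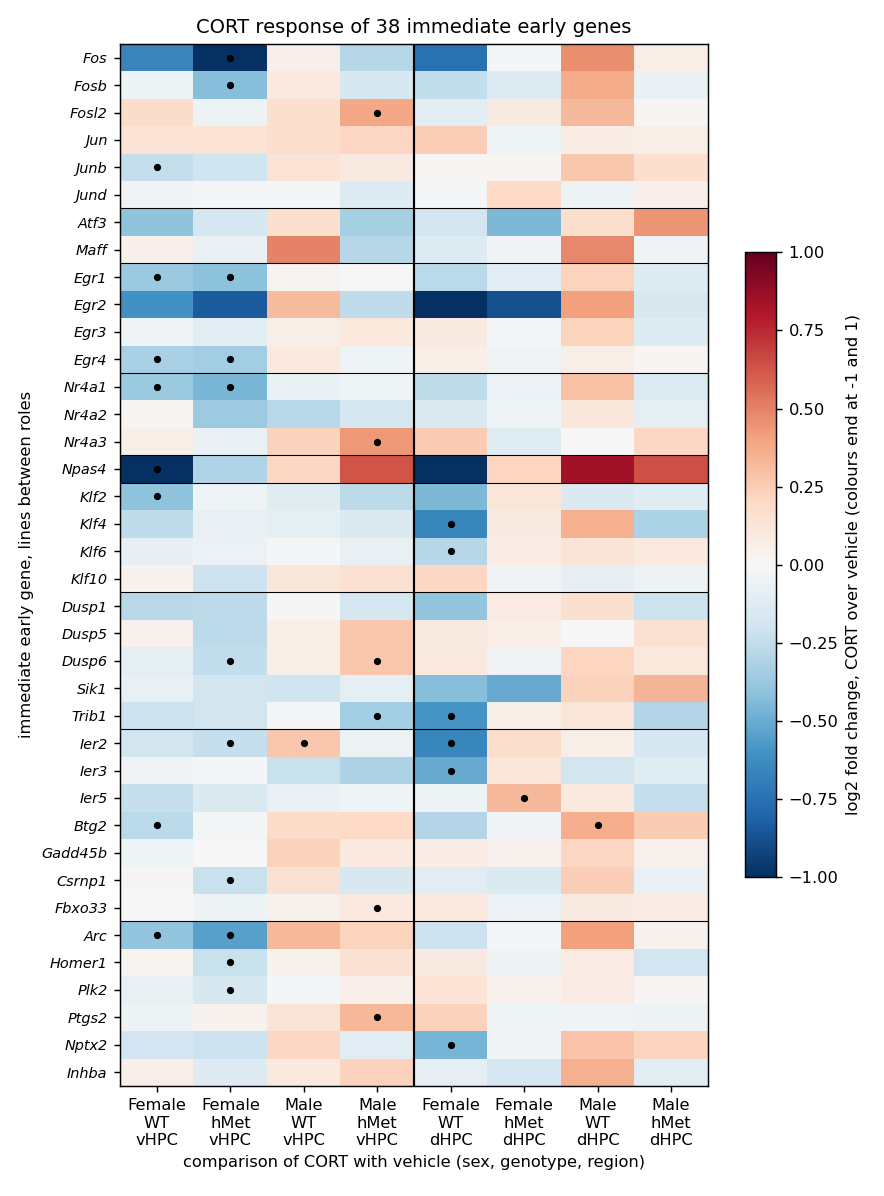
Log2 fold change with CORT (colour, ending at -1 and 1) of the 38 members (rows, grouped by role) in the 8 comparisons (columns); a black dot marks an unadjusted p below 0.05. The column of hMet females in the vHPC is below 0 in 36 of 38 rows, and the dots of the female vHPC columns all lie on genes that were lower.

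In the vHPC of hMet females, 11 of the 38 members were lower at p below 0.05 and 0 were higher, beside 2.48% and 3.18% of all genes, and 5 were lower at the DEG threshold, beside 0.446% lower and 1.58% higher of all genes. Arc, which drives AMPA receptor endocytosis at active synapses, was at -0.55 ± 0.16, or 31.5% lower. Nr4a1, an orphan nuclear receptor of the NR4A family, was at -0.46 ± 0.14, or 27.3% lower. Arc (ENSMUSG00000022602) lies on chromosome 15 from 74669083 to 74672570 on the minus strand, and Nr4a1 (ENSMUSG00000023034) on chromosome 15 from 101254269 to 101274795 on the plus strand, in GRCm38. These were the members of smallest p in this table, where the adjusted p of each of the 11 was 0.849 in limma's fit. Among AP-1 subunits, the leucine zipper proteins that dimerise on TGANTCA, Fos had a log2 fold change of -1.06 ± 0.51 (95% interval -2.12 to -6.09e-05) and Fosb one of -0.43 ± 0.17. Egr1 (-0.41 ± 0.18) and Egr4 (-0.34 ± 0.12) were lower among the EGR zinc finger factors. Egr4 (ENSMUSG00000071341, chromosome 6, 85511121 to 85513589, minus strand) is a gene of 2148 exonic bases, of which 1434 are coding. Egr2 at -0.83 ± 0.51 did not pass, nor did Egr3 at -0.10.

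Of the 6 synaptic and secreted effectors, 3 were lower at p below 0.05 in the same table, Arc among them. Homer1, whose short activity-induced form uncouples postsynaptic scaffolds, was at -0.22 ± 0.07. Gene-level counts do not separate that form from the long one. Plk2 was at -0.16 ± 0.07. Nptx2 (-0.21 ± 0.13) and Inhba (-0.13 ± 0.15) did not pass. Dusp6, the phosphatase that switches off ERK, was at -0.25 ± 0.11. Of the IER and growth-control genes, 7 of 7 were below 0, Csrnp1 at -0.22 ± 0.08 and Ier2 at -0.23 ± 0.11. The 4 KLF factors were below 0 as well, and none had a p below 0.05. Jun (0.14) and Ptgs2, the inducible cyclooxygenase (0.03), were the members above 0.

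In the vHPC of WT females, 8 members were lower and 0 higher at p below 0.05, beside 1.66% and 1.52% of all genes. At the DEG threshold 3 were lower, beside 0.863% lower and 0.398% higher of all genes. These were Npas4, an activity-specific bHLH-PAS factor (-1.06 ± 0.47), Klf2 (-0.40 ± 0.17) and Arc (-0.39 ± 0.16). The log2 fold change was -0.37 ± 0.17 for Egr1, -0.32 ± 0.12 for Egr4 and -0.37 ± 0.14 for Nr4a1. Btg2, an antiproliferative gene (-0.27 ± 0.10), and Junb (-0.24 ± 0.11) were lower too. Fos (-0.66 ± 0.49) and Fosb (-0.05 ± 0.18) did not pass, and the adjusted p of each of the 8 was 1.00 in limma's fit. Egr1, Egr4, Nr4a1 and Arc were thus lower at p below 0.05 in females of both genotypes, in libraries that the comparisons do not share. Across the 38 genes, which are not independent, the fold changes of WT and hMet females correlated with a Pearson coefficient of 0.58 and a Spearman coefficient of 0.46, while over all genes of the table these were -0.13 and -0.06. The same coefficients of the members were 0.21 and -0.24 for females in the dHPC, where 18 of 38 had the same sign, and 0.29 and 0.34 for males in the vHPC, beside 0.31 and 0.38 over all genes. In females in the vHPC 27 of the 38 members were below 0 in both genotypes and 1 above 0 in both.

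**Figure D4:**
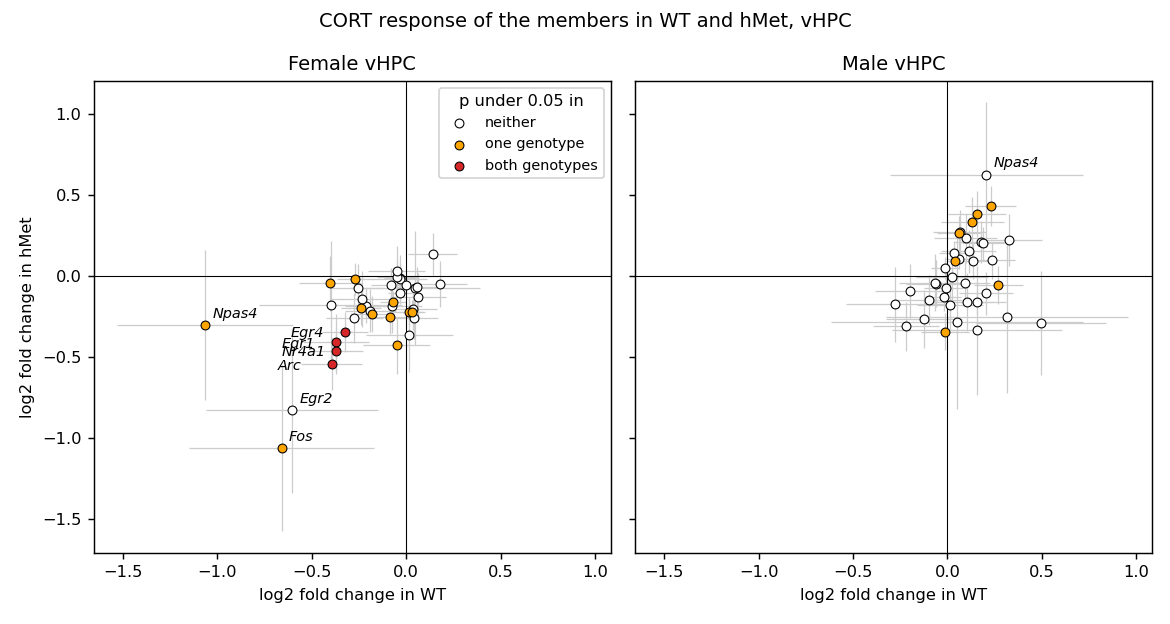
Log2 fold change with CORT of the 38 members in WT (horizontal axis) against hMet (vertical axis) in the vHPC, females left and males right; bars are moderated SE and the fill gives in how many genotypes the unadjusted p was below 0.05. In females 27 genes lie at the lower left, among them Arc, Egr1, Egr4 and Nr4a1, while in males 10 genes lie there and 16 in the upper right.

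In the vHPC of WT males, 1 member was higher and 0 were lower at p below 0.05, beside 3.43% and 3.81% of all genes, and 0 passed the DEG threshold, beside 1.05% higher and 1.65% lower. The one was Ier2 (0.27 ± 0.13, adjusted p = 0.682 in limma's fit). In the same comparison 3 of 5 microglia markers were lower. Of 5 astrocyte markers 1 was lower (Aqp4, -0.72) and 1 higher (Aldh1l1, 0.24). Of 5 endothelial markers 1 was lower (Tie1, -0.51), and of 7 neuron markers 1 was higher (Syt1, 0.12). The part of these markers in the value of Ier2 was not tested. In hMet males 5 members were higher and 1 lower at p below 0.05, beside 9.33% and 8.98% of all genes, the highest shares of the 8 comparisons. At the DEG threshold 2 were higher and 0 lower, beside 1.14% and 3.82%. Nr4a3 (0.43 ± 0.12, adjusted p = 0.0858 in limma's fit) and Fosl2, a longer-lived AP-1 subunit (0.38 ± 0.14, adjusted p = 0.156), were those 2. Dusp6 (0.27 ± 0.11), Ptgs2 (0.33 ± 0.15) and Fbxo33 (0.09 ± 0.04) were higher below that fold. Trib1, a pseudokinase that directs protein degradation (-0.34 ± 0.11, adjusted p = 0.112), was the lower one. With both directions counted, the members at p below 0.05 in hMet males were near or below the share of all genes. At the DEG threshold the count of members was near that share. The higher members alone were above their share of all genes, and the lower ones were below theirs. The genes that led in females stood near 0 here, Egr1 at 0.00 ± 0.18, Egr4 at -0.04 ± 0.13 and Nr4a1 at -0.05 ± 0.14, with Arc at 0.22 ± 0.16. In WT males Egr1 was at 0.02, Egr4 at 0.09, Nr4a1 at -0.06 and Arc at 0.33 ± 0.18.

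**Figure D5:**
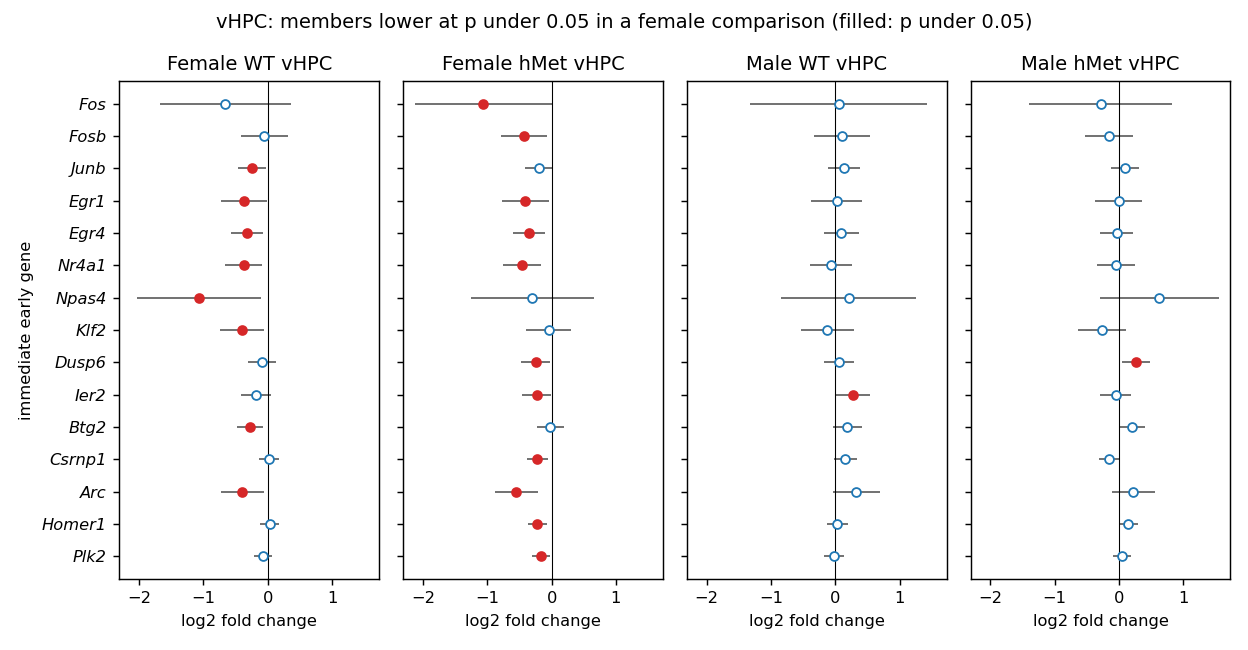
Log2 fold change with CORT (horizontal axis) and its 95% interval for the 15 members that were lower at an unadjusted p below 0.05 in the vHPC of WT or hMet females, in the 4 comparisons of the vHPC; filled red points have p below 0.05. These genes were picked for their female values, so the female panels are a description of that choice: 12 of 15 lie above 0 in WT males and 7 of 15 in hMet males.

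The difference between the sexes was then tested directly, as the male minus the female log2 fold change within a genotype, with p-values adjusted over all genes of the region. In hMet mice in the vHPC, 9 of 38 members differed at an unadjusted p below 0.05, all with the higher response in males, beside 15.6% of all genes. Shares of all genes in the tests of differences count both directions and were not split by direction. No gene passed an adjusted p of 0.05 (0%) here or in any of the other 7 tests of differences, and the lowest adjusted p of a member was 0.188. The 3 of smallest p were Homer1 (difference 0.36 ± 0.10), Dusp6 (0.52 ± 0.15, lower in females and higher in males at p below 0.05) and Arc (0.77 ± 0.23). Dusp5, Nr4a3, Fbxo33, Egr3, Plk2 and Fosl2 were the other 6. In WT mice in the vHPC, 5 members differed, again with the higher response in males, beside 4.33% of all genes. They were Btg2 (0.46 ± 0.15), Arc (0.72 ± 0.24), Ier2 (0.45 ± 0.17), Egr4 and Junb, and their adjusted p was 1.00 in each. Arc was therefore the member that differed at p below 0.05 in both genotypes. For Nr4a1 and Egr1, lower in females of both genotypes, the sex difference did not reach p below 0.05 in either. The 95% interval of that difference was -0.12 to 0.74 in WT and -0.00123 to 0.83 in hMet for Nr4a1, and -0.14 to 0.93 and -0.11 to 0.92 for Egr1. The median difference over the members was 0.17 in WT and 0.21 in hMet, with 34 and 30 of 38 above 0, and that over all genes was 0.00 and -0.01.

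Between genotypes, fewer members reached p below 0.05 in the vHPC. In females, 2 members differed between hMet and WT at p below 0.05, beside 4.87% of all genes. Homer1 (-0.25 ± 0.10) and Csrnp1 (-0.23 ± 0.11) had the lower response in hMet, and Btg2 came next (0.25 ± 0.14). In males, Csrnp1 alone had p below 0.05 (-0.31 ± 0.11), beside 3.28% of all genes, followed by Trib1 (-0.33 ± 0.17) and Ier2 (-0.32 ± 0.17). The adjusted p of every member was at least 0.92 in these tests, and both counts were near or below the share of all genes. For Npas4 the genotypes of females stood at -1.06 and -0.30, for Fos at -0.66 and -1.06, and neither pair differed at p below 0.05.

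In the dHPC errors were wider, and no difference between the regions was tested. In WT females 6 members were lower and 0 higher at p below 0.05, beside 3.91% and 2.58% of all genes, and 5 were lower at the DEG threshold, beside 2.52% lower and 0.602% higher. Klf4 (-0.65 ± 0.26) and Klf6 (-0.29 ± 0.13) are Krüppel-like factors, of which Klf4 is also expressed in vascular cells. Ier2 (-0.65 ± 0.29), Ier3 (-0.50 ± 0.24), Trib1 (-0.59 ± 0.26) and Nptx2 (-0.46 ± 0.18) were the others. Arc (-0.21 ± 0.39), Egr1 (-0.27 ± 0.38), Egr4 (0.07 ± 0.26) and Nr4a1 (-0.26 ± 0.38) did not pass, with wider errors than in the vHPC. Npas4 at -1.10 ± 0.56 and Egr2 at -1.27 ± 0.99 did not pass either, and the adjusted p of the 6 lay between 0.745 and 0.763 in limma's fit.

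The markers of other cells moved in this comparison as well. Of 5 endothelial markers 4 were lower at p below 0.05 (Tie1 -0.63, Cdh5 -0.41, Flt1 -0.39, Pecam1 -0.35) and the fifth, Cldn5, was at -0.19. Of 4 thalamic markers 3 were lower (Shox2 -3.08, Tcf7l2 -1.87, Slc17a6 -1.62), while Slc17a7, the glutamate transporter of hippocampal pyramidal cells, was higher (0.26), as was Neurod6 of the CA fields (0.34), and 0 of the other markers passed. Their part in the lower Klf4, Klf6, Ier2, Ier3, Trib1 and Nptx2 was not tested.

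In WT males in the dHPC, 31 of 38 members were above 0, and 1, Btg2, was higher at p below 0.05 (0.36 ± 0.14) and 0 lower, beside 2.01% and 2.54% of all genes. In the same comparison 5 of 5 microglia markers were lower (-0.44 to -0.23). Of 5 astrocyte markers, Gfap (-0.53) and Aqp4 (-0.56) were lower and Aldh1l1 (0.28) higher. The part of these markers in the higher Btg2 was not tested. The DEG threshold was passed by 0 members, beside 0.853% higher and 1.25% lower. In hMet females 1 was higher, Ier5 (0.32 ± 0.14), and 0 lower, beside 1.68% and 1.55%, with 0 at the DEG threshold beside 0.552% higher and 0.492% lower. There 5 of 5 endothelial markers were above 0 and Cldn5 (0.51) was higher at p below 0.05, while the choroid plexus markers lay between -1.39 and -0.65 and did not pass, and their part in the higher Ier5 was not tested. In hMet males 0 members were higher or lower at p below 0.05, beside 2.94% and 3.40%, nor at the DEG threshold, beside 1.12% and 1.81%. The fold changes of the members furthest from 0 in hMet males, Npas4 (0.64 ± 0.57) and Atf3 (0.44 ± 0.40), were not separated from it by their errors.

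The sex difference in the dHPC of WT mice reached p below 0.05 for 5 members, all higher in males, beside 6.49% of all genes. Btg2 (0.65 ± 0.20), Nptx2 (0.75 ± 0.25) and Klf4 (1.01 ± 0.37) had the smallest p, followed by Npas4 (1.94 ± 0.77) and Klf6. Btg2 was the member whose sex difference passed p below 0.05 in WT mice in both regions. In hMet mice 2 members differed, Ier5 with the lower response in males (-0.56 ± 0.20) and Sik1, a kinase that restrains CRTC coactivators, with the higher one (0.84 ± 0.40), beside 5.22% of all genes. Atf3 was next (0.89 ± 0.53). Between genotypes, Klf4 alone had p below 0.05 in females (0.74 ± 0.36), beside 4.84% of all genes, with Ier2 (0.83 ± 0.40) and Ier3 (0.62 ± 0.33) next. In males 0 differed, beside 3.36%, and Klf4 (-0.68 ± 0.38), Egr3 (-0.36 ± 0.20) and Ier5 (-0.34 ± 0.20) came closest. The counts for the sexes in hMet mice and for the genotypes were near or below the shares of all genes. The lowest adjusted p of a member over the 4 tests in the dHPC was 0.667.

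In the median, members of the same role were no more alike in their responses than members in general, though this differed between roles. Over the 8 log2 fold changes of each gene, the median Pearson coefficient of the 703 pairs of members was 0.39, and it was 0.35 for the 77 pairs with the same role. It was 0.63 within the EGR factors and 0.42 within the synaptic and secreted effectors, but -0.04 within the AP-1 subunits and 0.04 within the KLF factors. The pairs most alike were Arc with Egr1 (0.98), Egr1 with Nr4a1 (0.97), Btg2 with Npas4 (0.96), Csrnp1 with Fosb (0.94) and Arc with Nr4a1 (0.92), all of different roles. Jun, Jund and Ier3 stood apart, with median coefficients to the other members of -0.16, -0.14 and -0.13. Jun was above 0 in 7 of 8 comparisons and Nr4a1 below 0 in 7 of 8. The widest spans were those of Npas4, from -1.10 to 0.84, Egr2, from -1.27 to 0.41, and Fos, from -1.06 to 0.47, and the narrowest was that of Fbxo33, from -0.06 to 0.10. With 8 points a gene, whose errors differ between regions, these coefficients are a description.

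Of the 15 members lower at p below 0.05 in the vHPC of females of either genotype, 12 had a promoter window and 11 of these held the CRE core, Dusp6 being without it, against 9 of the other 18 members with a window. This split was made after the values were seen and was not tested.

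Other genes of the activity programme were read from a second list, and the lists were not tested against each other. Among its 17 measured genes, 1 was lower and 0 higher at p below 0.05 in WT females in the vHPC (Spry2, an ERK inhibitor, -0.21). In hMet females 1 was lower and 1 higher (Crem -0.17, Zfp36 0.23), and the medians were -0.05 (WT) and -0.02 (hMet). Most of this list also lay below 0 in the vHPC of females, 15 of 17 in WT and 13 in hMet. In the vHPC of males 9 (WT) and 10 (hMet) lay below 0. In the vHPC of WT males Vgf (0.20) was higher and Pcsk1 (-0.26) lower. In hMet males Bdnf (0.45), the neurotrophin gene that carries the variant, and Dusp4 (0.29) were higher and Dusp14 (-0.32) lower. In the dHPC 1 of the 17 passed in the 4 comparisons together, Ccn1, lower in hMet males (-0.58). Of 18 upstream regulators, 0 in WT females and 1 in hMet females in the vHPC (Crtc2, a CREB coactivator, 0.22) had p below 0.05, so Creb1, Srf, Elk1 and the MEF2 genes were not among them. In WT males 1 was higher and 0 lower. In the dHPC 1 was higher and 1 lower in WT females, 0 passed in WT males, and 1 in hMet females and 2 in hMet males were lower. In hMet males in the vHPC 2 were higher and 3 lower. Mapk3, which encodes ERK1, was lower there (-0.22, adjusted p = 0.0431 in the authors' limma table) and passed the adjusted threshold, and Mef2c (-0.56) passed the unadjusted one.

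The cell type markers in the vHPC of females were as follows. In hMet females 0 of 7 neuron, 0 of 6 subfield, 0 of 5 astrocyte, 0 of 5 microglia, 0 of 4 oligodendrocyte, 0 of 5 endothelial, 0 of 4 thalamic and 0 of 5 choroid plexus markers had p below 0.05. The choroid plexus markers nonetheless spanned 1.17 to 2.58 in log2 fold change, with wide errors. The 4 oligodendrocyte markers all lay below 0 (-0.35 to -0.21) and the 4 thalamic ones above it (0.02 to 0.42). The part of these markers in the lower activity genes was not tested. In WT females 1 of 7 neuron markers, Gad2, was higher (0.13), and 0 of the other markers passed. There the choroid plexus markers lay between -1.33 and -0.36, the 4 oligodendrocyte markers between -0.36 and -0.21 and the 4 thalamic ones between -0.41 and -0.13. Their part in the lower activity genes of WT females was not tested either. In hMet males in the vHPC 5 of 5 microglia markers (-0.59 to -0.39) and 4 of 4 oligodendrocyte markers (-0.70 to -0.50) were lower, 3 of 5 astrocyte markers were lower and 1 higher, and Syt1 and Snap25 among 7 neuron markers were higher (0.15 and 0.14). Fibcd1 (0.35) and Neurod6 (0.33) among 6 subfield markers and Cldn5 (0.32) among 5 endothelial ones were higher as well. Their part in the higher Nr4a3, Fosl2, Dusp6 and Ptgs2 and the lower Trib1 was not tested. Neuron markers stood at high levels in both regions, such as Snap25 at 11.3 log2 CPM in the vHPC.

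Junb, Dusp1, Jun and Dusp5 overlap in their exons with a gene on the opposite strand that is also in the tables (Prdx2, Ergic1, Junos and AC137853.2). The library kit keeps strand, and whether counting used it is not given in the sources used here, so their values are less certain.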

How the data were processed

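Low-quality reads were discarded by the authors, who aligned the rest to mm10 (GRCm38) with STAR, counted them per gene with featureCounts and fitted limma-voom per region, per the labels and the paper's methods. Tool versions are not given in the sources used here. The paper's supplementary methods state an approximate depth common to all libraries, and the tables hold no total per library. The labels list 4 libraries a group, while a text in them speaks of 3 replicates. The series' design text gives 2 weeks of treatment and the sample labels 6. The paper describes 4 biological replicates a group, each a pool of 2 animals, so the p-values rest on spread between pools. Spread between single animals is not measured, and whether an animal gave RNA to several pools is not stated.

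The deposited average expression, fold change and unmoderated standard error are on the log2 scale. The authors also deposited limma's t, a score. Each deposited p-value comes with an adjusted one (Benjamini-Hochberg over the table). Degrees of freedom are another deposited quantity. These columns are the authors' own comparisons, and the report prints them because no other values were used here. Which libraries, if any, the vHPC fits left out is not stated.

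Computed here were moderated standard errors (log2 fold change over t), 95% intervals, counts of members at p below 0.05 and FC over 1.3, differences of responses and shares of promoter windows with a motif. A difference was divided by the root of the summed squared moderated errors, referred to the authors' degrees of freedom and adjusted over all genes of the region (tested on simulated data). Both comparisons of a difference take their spread from a single fit. Software was scipy 1.17.1, numpy 2.4.6, matplotlib 3.10.9 and pandas 2.3.3 under Python 3.11.15. Symbols matched all 38 members, and RefSeq windows (GRCm38.p6) 30.

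Members, gene lists and tests were chosen with earlier results of these data known. All members are named with their level. Fold changes are given for members past the DEG threshold once, at p below 0.05 in 2 comparisons, or among the 3 of smallest p in a difference, and beside these for members in lists and spans chosen after their values were seen. Alternatives were p below 0.01, no fold filter, adjusted p, a mean of at least 1 log2 CPM, centring, the mean or t in place of the median, unmoderated errors, Spearman coefficients and coding length.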

Additional observations from a re-analysis of the deposited data

How the results depend on the processing

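No paired analysis was possible because the tables hold no values per library, and for the same reason no library could be left out. With a p below 0.01 and FC over 1.3, 0 members passed in WT females in either region, and in the vHPC 2 passed in hMet females and 1 in hMet males. The share of all genes at this stricter p was not counted, so whether these counts exceed it is not known. Without the fold filter the dHPC counts were 6 (WT females), 1 (WT males), 1 (hMet females) and 0 (hMet males). The vHPC counts were 8 (WT females), 1 (WT males), 11 (hMet females) and 6 (hMet males). With an adjusted p below 0.05 the count was 0 in each comparison. A minimum mean level or centring moved no count by over 1.5 times. The median response kept its sign under the mean, the level filter and centring in females and in WT males in both regions. In hMet males it stood close to 0 and its sign turned: in the dHPC from -0.01 to 0.01 with the mean, with a median moderated t of 0.00146, and in the vHPC from -0.04 to 0.01 with the mean. For the differences, unmoderated errors and the level filter also gave 0 members at an adjusted p below 0.05. At an unadjusted p below 0.05 there were 5 between the sexes in WT and 2 in hMet in the dHPC, 5 in WT and 9 in hMet in the vHPC, and between genotypes 1 in females in the dHPC, 2 in females and 1 in males in the vHPC. At p below 0.01, where the share of all genes was not counted either, the sexes gave 2 and 1 in the dHPC and 2 and 5 in the vHPC. These alternatives change the threshold alone. The median coefficient of pairs of members was 0.39 by Pearson, 0.29 by Spearman and 0.38 on the moderated t. The median level of the members per kb of coding length was 4.02 (dHPC) and 3.83 (vHPC), and with no length 4.48 and 3.96. The tables give an error for each fold change but no counts per library, so the counts behind low members such as Egr2, Maff and Atf3 are not shown.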
